A study of Mus musculus with 12 samples.

Results

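Cryab, Layn and 8 genes that lie near them on mouse chromosome 9 were followed across brain region and genotype. The genes were Pts, Bco2, Il18, Sdhd, Timm8b, Dlat, Dixdc1, Cryab, Sik2 and Layn, in the order of the RefSeq gene table of assembly GRCm38.p6. They were listed by symbol, as 10 of the 19938 genes that a single-symbol probe set represents on the array. The list was picked because several of these neighbours differ between the genotypes, so their knockout against wild-type values are given as a description. They come from a fit over all genes, and nothing is read from whether a member passes its threshold. The study hybridised total RNA from the hippocampus and the olfactory bulb of 3 wild-type and 3 RasGRF2 knockout mice to 12 one-colour arrays, which form 4 groups of 3. All animals were adults of strain C57BL/6 that had been kept in a conventional facility and had received no treatment. The sources used here do not say how the knockout allele was made, how far it was backcrossed or whether the groups were littermates. The missing protein, RasGRF2, activates the GTPases Ras and Rac in neurons, and its gene lies on another chromosome.

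The 10 genes have no single function in common. Cryab encodes alpha-B crystallin, a small heat shock protein that keeps unfolded proteins from aggregating and that is abundant in lens, muscle and, in brain, oligodendrocytes. Layn encodes layilin, a membrane receptor for hyaluronan. Another 4 gene products work in mitochondria: Sdhd is a membrane anchor of succinate dehydrogenase, Timm8b a small chaperone of protein import, Dlat the acetyltransferase core of pyruvate dehydrogenase, and Bco2 an oxygenase that cleaves carotenoids. Pts makes a precursor of tetrahydrobiopterin, the cofactor of the enzymes that start catecholamine and serotonin synthesis. Il18 is a cytokine of inflammation, Dixdc1 a DIX domain protein of Wnt signalling, and Sik2 a kinase that restrains the CRTC coactivators of CREB.

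Between Pts and Layn the array measures 19 genes, 9 of them not on the list. Sdhd and Timm8b start 52 bases apart on opposite strands, so their RefSeq promoter windows, 250 bases before to 50 bases after each start, share 151 bases. These windows are shown because Sdhd was higher in knockout arrays and Timm8b was not. Capitals mark the shared bases, which read as the reverse complement of each other.
Sdhd promoter, chr9:50603800-50604099, minus strand: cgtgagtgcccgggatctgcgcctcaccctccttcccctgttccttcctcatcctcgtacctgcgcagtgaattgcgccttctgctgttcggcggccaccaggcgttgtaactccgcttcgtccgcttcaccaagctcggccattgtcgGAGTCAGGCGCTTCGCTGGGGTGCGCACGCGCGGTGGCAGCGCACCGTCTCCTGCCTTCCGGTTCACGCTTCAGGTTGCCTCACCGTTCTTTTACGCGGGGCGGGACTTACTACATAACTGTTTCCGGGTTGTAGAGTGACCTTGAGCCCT
Timm8b promoter, chr9:50603651-50603950, plus strand: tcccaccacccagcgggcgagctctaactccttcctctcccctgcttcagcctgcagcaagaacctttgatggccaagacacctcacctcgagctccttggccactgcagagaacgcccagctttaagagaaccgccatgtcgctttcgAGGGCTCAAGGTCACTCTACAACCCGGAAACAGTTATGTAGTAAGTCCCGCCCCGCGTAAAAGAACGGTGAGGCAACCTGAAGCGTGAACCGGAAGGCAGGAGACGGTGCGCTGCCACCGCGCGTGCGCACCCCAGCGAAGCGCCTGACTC
The windows of Pts and Layn, the outermost genes of the run, are shown because both genes were higher in knockout arrays. Capitals mark matches on either strand to the motifs searched.
Pts promoter, chr9:50528607-50528906, minus strand: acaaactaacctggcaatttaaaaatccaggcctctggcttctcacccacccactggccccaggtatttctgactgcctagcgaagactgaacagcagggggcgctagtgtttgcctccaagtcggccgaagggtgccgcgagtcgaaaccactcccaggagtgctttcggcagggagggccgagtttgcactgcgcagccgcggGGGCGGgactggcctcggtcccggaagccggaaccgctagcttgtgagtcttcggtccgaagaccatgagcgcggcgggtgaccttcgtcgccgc
Layn promoter, chr9:51077045-51077344, minus strand: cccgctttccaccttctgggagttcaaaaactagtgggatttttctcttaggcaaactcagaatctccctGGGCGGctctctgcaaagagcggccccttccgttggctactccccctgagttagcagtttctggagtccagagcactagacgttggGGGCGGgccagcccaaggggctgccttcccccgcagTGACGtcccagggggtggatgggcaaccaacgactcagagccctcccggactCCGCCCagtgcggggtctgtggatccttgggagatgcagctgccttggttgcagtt
The motifs searched on both strands included GGGCGG, which zinc finger proteins of the Sp family bind, and TGACG, the core of the element that CREB binds. The heat shock element was searched as GAANNTTC, and the TATA box as TATAAA. The E-box, bound by helix-loop-helix proteins, was searched as CACGTG. None of these motifs contains another. The Pts window holds 1 match to GGGCGG, and the Layn window holds 3 to GGGCGG and 1 to TGACG. Among the other members, the Sik2 window holds 8 to GGGCGG and 2 to TGACG, and the Dlat window 1 to each. The Sdhd and Timm8b windows hold 1 to GGGCGG each. These matches are therefore not particular to the members that were higher in knockout arrays. Of all 32851 windows in the table, 35.7% hold GGGCGG and 20.8% hold TGACG. GAANNTTC was found among these genes only in a window of Dixdc1, against 7.86% of all windows. A window was found for 9 of the 10 genes, Cryab being the one without. A match describes the letters and is no evidence of a bound factor.

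The arrays limit precision by their number, 3 per group. The deposited values are log2 intensities, and array medians lay between 6.82 and 6.95. Bco2 lay below the median of every array, Pts below it in 5 of 12 and Layn in 7 of 12, and the other genes lay above it throughout. Rasgrf2 itself fell by 0.58 in knockout hippocampus (SE 0.0772, limma adjusted p = 0.00197), while its difference in the bulb was -0.14 (SE 0.0772, limma adjusted p = 0.532). The sources used here do not say whether its probe set covers the mutated exons. Hippocampal marker genes averaged 10.03 to 10.13 in hippocampal arrays and 7.92 to 8.05 in bulb arrays, and bulb markers 9.63 to 9.79 in bulb and 6.64 to 6.85 in hippocampus, as every tissue label has it. In pieces of tissue, more cells of a type and more RNA per cell cannot be told apart.

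Cryab was the member with the largest difference. Its hippocampal values were 9.09, 8.62 and 8.95 in wild-type animals I547, N135 and N138, against 9.79, 9.83 and 9.86 for knockout animals N384, N386 and N390, the order kept for every gene below. Its bulb values were 8.43, 8.65 and 8.35 in wild type and 9.50, 9.47 and 9.52 in knockout. Every knockout array lay above every wild-type array of its tissue, and the knockout values lay closer together than the wild-type ones. The difference was 0.94 in hippocampus (SE 0.104, 1.91-fold) and 1.02 in bulb (SE 0.104, 2.03-fold). The groups ranked from wild-type bulb through wild-type hippocampus and knockout bulb to knockout hippocampus, and only the wild-type groups overlapped. With each array left out in turn and under the other settings tried, the difference stayed between 0.80 and 1.04 in hippocampus and between 0.96 and 1.10 in bulb.

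Layn, the last gene of the run, was higher in knockout arrays of both tissues, by more in the hippocampus, though that gap did not pass the test of the difference given further on. There it read 6.69, 6.16 and 6.49 in wild type and 7.37, 7.41 and 7.19 in knockout. In the bulb it read 6.65, 6.74 and 6.53 in wild type and 6.96, 7.03 and 6.85 in knockout. The genotypes did not overlap in either tissue, and wild-type animal N135 was the lowest of the hippocampal arrays. The difference was 0.88 in hippocampus (SE 0.113, 1.84-fold) and 0.30 in bulb (SE 0.113, 1.23-fold). Among the groups, wild-type hippocampus had the lowest mean and overlapped wild-type bulb, and knockout hippocampus the highest.

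**Figure D1:**
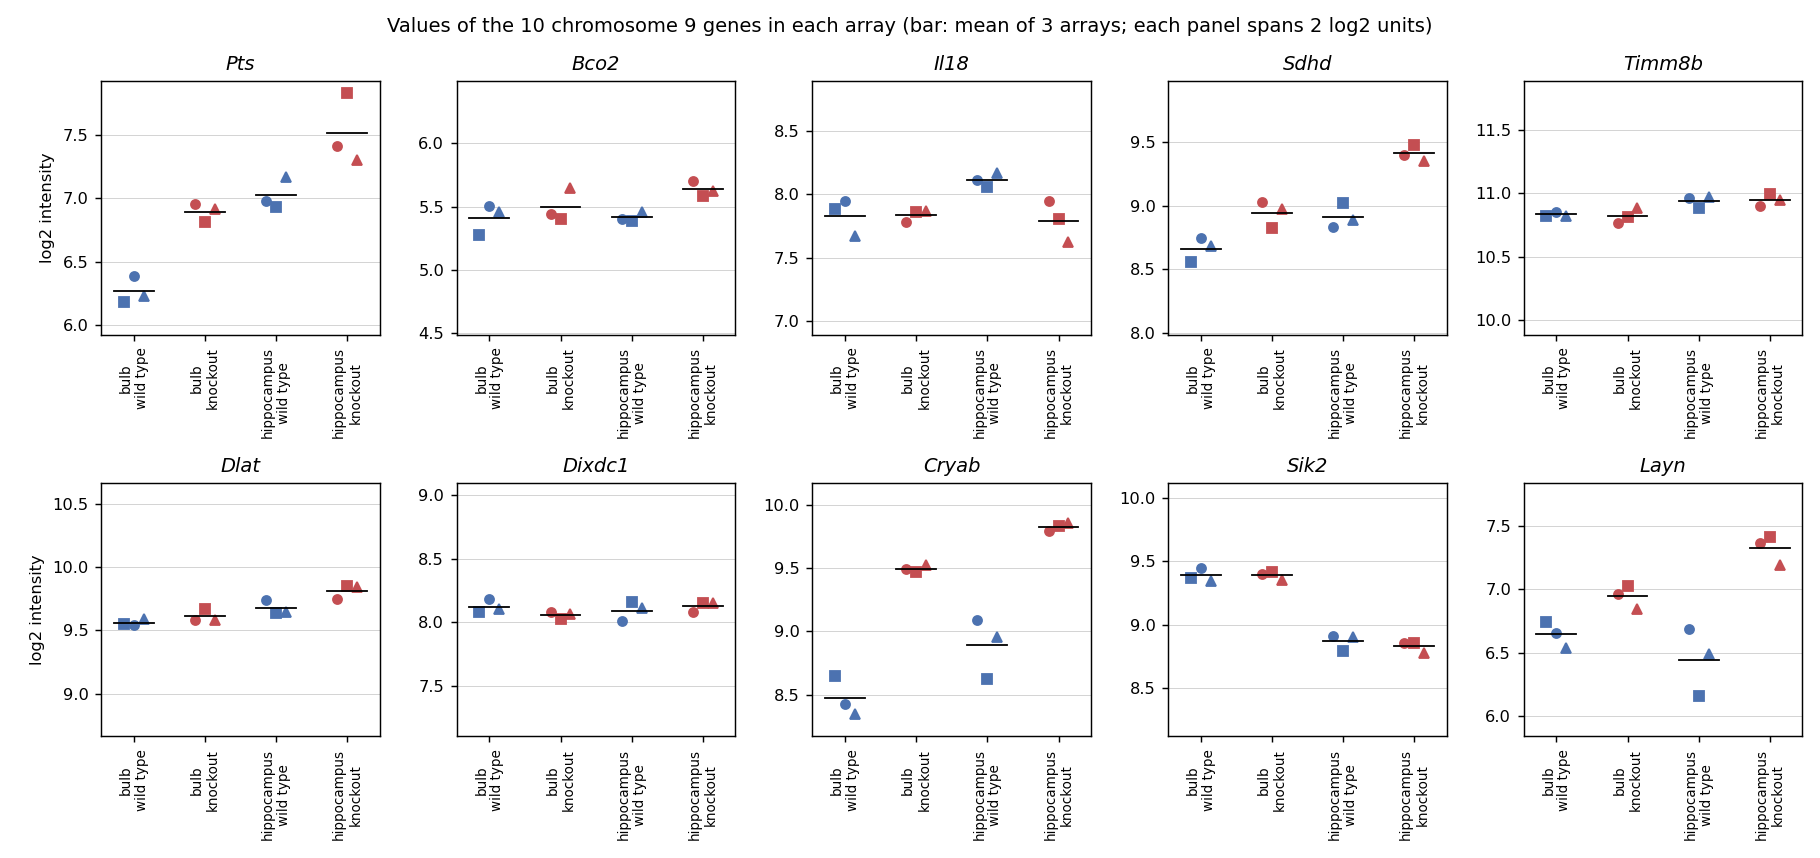
Log2 intensity (vertical axis) of each of the 10 genes in the 12 arrays, by tissue and genotype, in chromosome order. Points are arrays (in wild type circle I547, square N135, triangle N138; in knockout circle N384, square N386, triangle N390), bars are means of 3 arrays, and each panel spans the same range. Pts, Sdhd, Cryab and Layn stand apart by genotype in both tissues, and Sik2 stands apart by tissue.

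Sdhd read 8.83, 9.02 and 8.89 in wild-type and 9.40, 9.48 and 9.35 in knockout hippocampus. In the bulb it read 8.75, 8.55 and 8.68 in wild type and 9.03, 8.83 and 8.97 in knockout. The genotypes did not overlap in either tissue, whereas wild-type hippocampus and knockout bulb, at means of 8.91 and 8.94, did. The difference was 0.50 in hippocampus (SE 0.0795, 1.41-fold) and 0.28 in bulb (SE 0.0795, 1.22-fold). Pts read 6.98, 6.93 and 7.16 in wild-type and 7.41, 7.83 and 7.30 in knockout hippocampus. Its bulb values were 6.39, 6.18 and 6.23 in wild type and 6.95, 6.81 and 6.91 in knockout. The genotypes were again apart in both tissues, and knockout animal N386 stood above the other hippocampal arrays. The difference of Pts was 0.49 in hippocampus (SE 0.115, 1.404-fold) and 0.63 in bulb (SE 0.115, 1.54-fold).

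Timm8b, which shares its promoter region with Sdhd, stayed close to the same value in both genotypes. It read 10.96, 10.88 and 10.98 in wild-type and 10.90, 10.99 and 10.95 in knockout hippocampus. In the bulb it read 10.86, 10.82 and 10.83 in wild type and 10.76, 10.81 and 10.89 in knockout. The genotypes overlapped in both tissues. The difference was 0.0049 in hippocampus (95% interval -0.13 to 0.14) and -0.013 in bulb (95% interval -0.15 to 0.12), so that the intervals leave out the hippocampal and bulb differences measured for Sdhd. Sik2, next to Layn in the order, differed by -0.04 in hippocampus (95% interval -0.18 to 0.10) and by 0.0014 in bulb (95% interval -0.14 to 0.14). Its values were 8.91, 8.79 and 8.90 against 8.86, 8.85 and 8.77 in hippocampus, wild type first, with overlap. Its bulb values were 9.45, 9.37 and 9.35 against 9.40, 9.42 and 9.35, which also overlapped. Dixdc1, 2 places before Cryab, lay between 8.01 and 8.18 in all 12 arrays, with differences of 0.04 in hippocampus (95% interval -0.10 to 0.17) and -0.07 in bulb (95% interval -0.20 to 0.07). In bulb its knockout arrays, at 8.08, 8.02 and 8.07, lay just under the wild-type ones, at 8.18, 8.08 and 8.10.

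Dlat, Bco2 and Il18 fell between these patterns. Dlat was higher in knockout hippocampus by 0.14 (95% interval 0.0015 to 0.28), from 9.74, 9.64 and 9.64 to 9.75, 9.85 and 9.84, where the groups just missed each other, and by 0.05 in bulb, where they overlapped. Bco2, a dim probe set, read 5.40, 5.38 and 5.46 in wild-type and 5.70, 5.58 and 5.62 in knockout hippocampus, a difference of 0.22 (95% interval 0.05 to 0.39), and its bulb arrays overlapped. Il18 was the member that went the other way. It read 8.11, 8.06 and 8.17 in wild-type and 7.94, 7.80 and 7.62 in knockout hippocampus, without overlap, a difference of -0.32 (95% interval -0.51 to -0.13). In the bulb it read 7.95, 7.88 and 7.67 in wild type and 7.78, 7.86 and 7.86 in knockout, a difference of 0.0031 (95% interval -0.19 to 0.19).

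Counted together, 4 of the 10 members (Cryab, Layn, Pts and Sdhd) had all knockout arrays above all wild-type arrays in both tissues, a pattern that 1.16% of all genes show. In hippocampus 6 members lay above and 1 below without overlap, where 9.39% and 3.66% of all genes do. In bulb 4 lay above and 1 below, against 8.22% and 8.87%. At a limma adjusted p under 0.05 over all genes, 3 members passed in hippocampus (Cryab, Layn and Sdhd), where 0.256% of all genes passed. In bulb 2 members passed (Cryab and Pts), where 0.411% of all genes did. With the tissues of each animal averaged, Cryab, Layn, Pts and Sdhd passed, 4 members against 0.577% of genes, at differences of 0.98, 0.59, 0.56 and 0.39. Since the genes were picked on these contrasts, nothing is read from these counts, and their moves below are a description too. Over the 10 members the median difference was 0.18 in hippocampus and 0.07 in bulb, beside 0.03 and -0.02 over all genes. Sdhd in hippocampus dropped out of the count in 5 of 22 settings, among them without wild-type animal I547 or N138 or knockout animal N384 or N386, at 0.46 to 0.50. Pts in bulb dropped out without any one of the 6 bulb arrays, at 0.58 to 0.69, and in 1 other setting, and Pts in hippocampus entered the count with array weights, at 0.41.

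The run holds members apart in their genotype difference that are next to each other in the order. From Pts onward the hippocampal differences were 0.49 for Pts, 0.22 for Bco2, -0.32 for Il18, 0.50 for Sdhd, 0.00 for Timm8b, 0.14 for Dlat, 0.04 for Dixdc1, 0.94 for Cryab, -0.04 for Sik2 and 0.88 for Layn. Timm8b, Dlat and Dixdc1 lie between Sdhd and Cryab, and Sik2 lies between Cryab and Layn. Among these 4, the hippocampal intervals of Timm8b, Dixdc1 and Sik2 include 0 and that of Dlat starts just above it. For 5 members (Bco2, Timm8b, Dlat, Dixdc1 and Sik2) the 95% intervals stayed within 0.5 of 0 in both tissues, a bound chosen after the values were seen.

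The measured genes around the members were tested in the same fit. They were the 9 genes between Pts and Layn that are not on the list, and 30 on each side. Of these 69 genes, 2 rose in each tissue and both lie before Pts, while 67 did not pass. Htr3a, a subunit of the serotonin-gated ion channel 12 places before Pts, read 6.77, 6.92 and 6.73 in wild-type and 7.38, 7.65 and 7.35 in knockout hippocampus. In bulb it read 6.69, 6.64 and 6.80 against 7.67, 7.60 and 7.58. The genotypes were well apart in both tissues. Htr3a rose by 0.65 in hippocampus (SE 0.0868, limma adjusted p = 0.00197) and by 0.90 in bulb (SE 0.0868, limma adjusted p = 0.000108), higher in 3 of 3 knockout arrays of each tissue. Without any one array it still passed in both tissues.

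Nxpe4, 20 places before Pts, read 6.94, 6.68 and 6.89 in wild-type and 7.39, 7.36 and 7.29 in knockout hippocampus. In bulb it read 6.63, 6.57 and 6.53 against 7.13, 6.90 and 6.94, again without overlap. It rose by 0.51 in hippocampus (SE 0.0820, limma adjusted p = 0.0112) and by 0.41 in bulb (SE 0.0820, limma adjusted p = 0.0443). These calls were less firm. The hippocampal one was lost without wild-type animal N135 (0.44) or knockout animal N384 (0.49) or N386 (0.51), and the bulb one without all but 1 of the 12 arrays in turn, with differences of 0.34 to 0.46.

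Of the 9 genes between the members, 0 passed in limma in either tissue. An unadjusted limma p under 0.05 was found for 3 in hippocampus and 2 in bulb, beside 1776 and 2245 of all 19938 genes. Hspb2, the small heat shock protein gene that lies head to head with Cryab, differed by 0.11 in hippocampus (95% interval -0.11 to 0.33) and by -0.02 in bulb (95% interval -0.24 to 0.20). Both intervals end below the differences of Cryab. On the other side of Cryab, 2310030G06Rik differed by 0.17 in hippocampus (95% interval 0.0015 to 0.34) and by 0.06 in bulb. Nkapd1, next to Timm8b, was lower at -0.30 in hippocampus (limma adjusted p = 0.258) and -0.22 in bulb (limma adjusted p = 0.347). Pih1d2 differed by 0.31 in hippocampus (limma adjusted p = 0.255) and -0.03 in bulb. With array weights, Nkapd1 and Pih1d2 passed in hippocampus. Tex12, a protein of the synaptonemal complex, 1110032A03Rik, Fdxacb1, Alg9, a mannosyltransferase of N-glycan assembly, and Ppp2r1b, a phosphatase scaffold, differed by -0.13 to 0.16 in hippocampus and by -0.24 to 0.17 in bulb.

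On the outer sides, the 3 nearest genes before Pts (Plet1, Gm11149 and the adhesion molecule gene Ncam1) differed by 0.31, 0.36 and 0.03 in hippocampus and by -0.28, 0.09 and -0.16 in bulb, and none passed. The 3 nearest after Layn (Hoatz, Btg4 and the microRNA gene Mir34c) differed by 0.05, 0.07 and 0.01 in hippocampus and by -0.11, -0.12 and -0.06 in bulb, and none passed. None of the 30 genes after Layn passed in either tissue in limma. Among them, 4 in hippocampus and 5 in bulb had an unadjusted limma p under 0.05, beside 1776 and 2245 of all 19938 genes. For 60 of the 69 neighbours the 95% intervals stayed within 0.5 of 0 in both tissues. A gene that did not pass is not thereby shown to be equal between the genotypes.

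**Figure D2:**
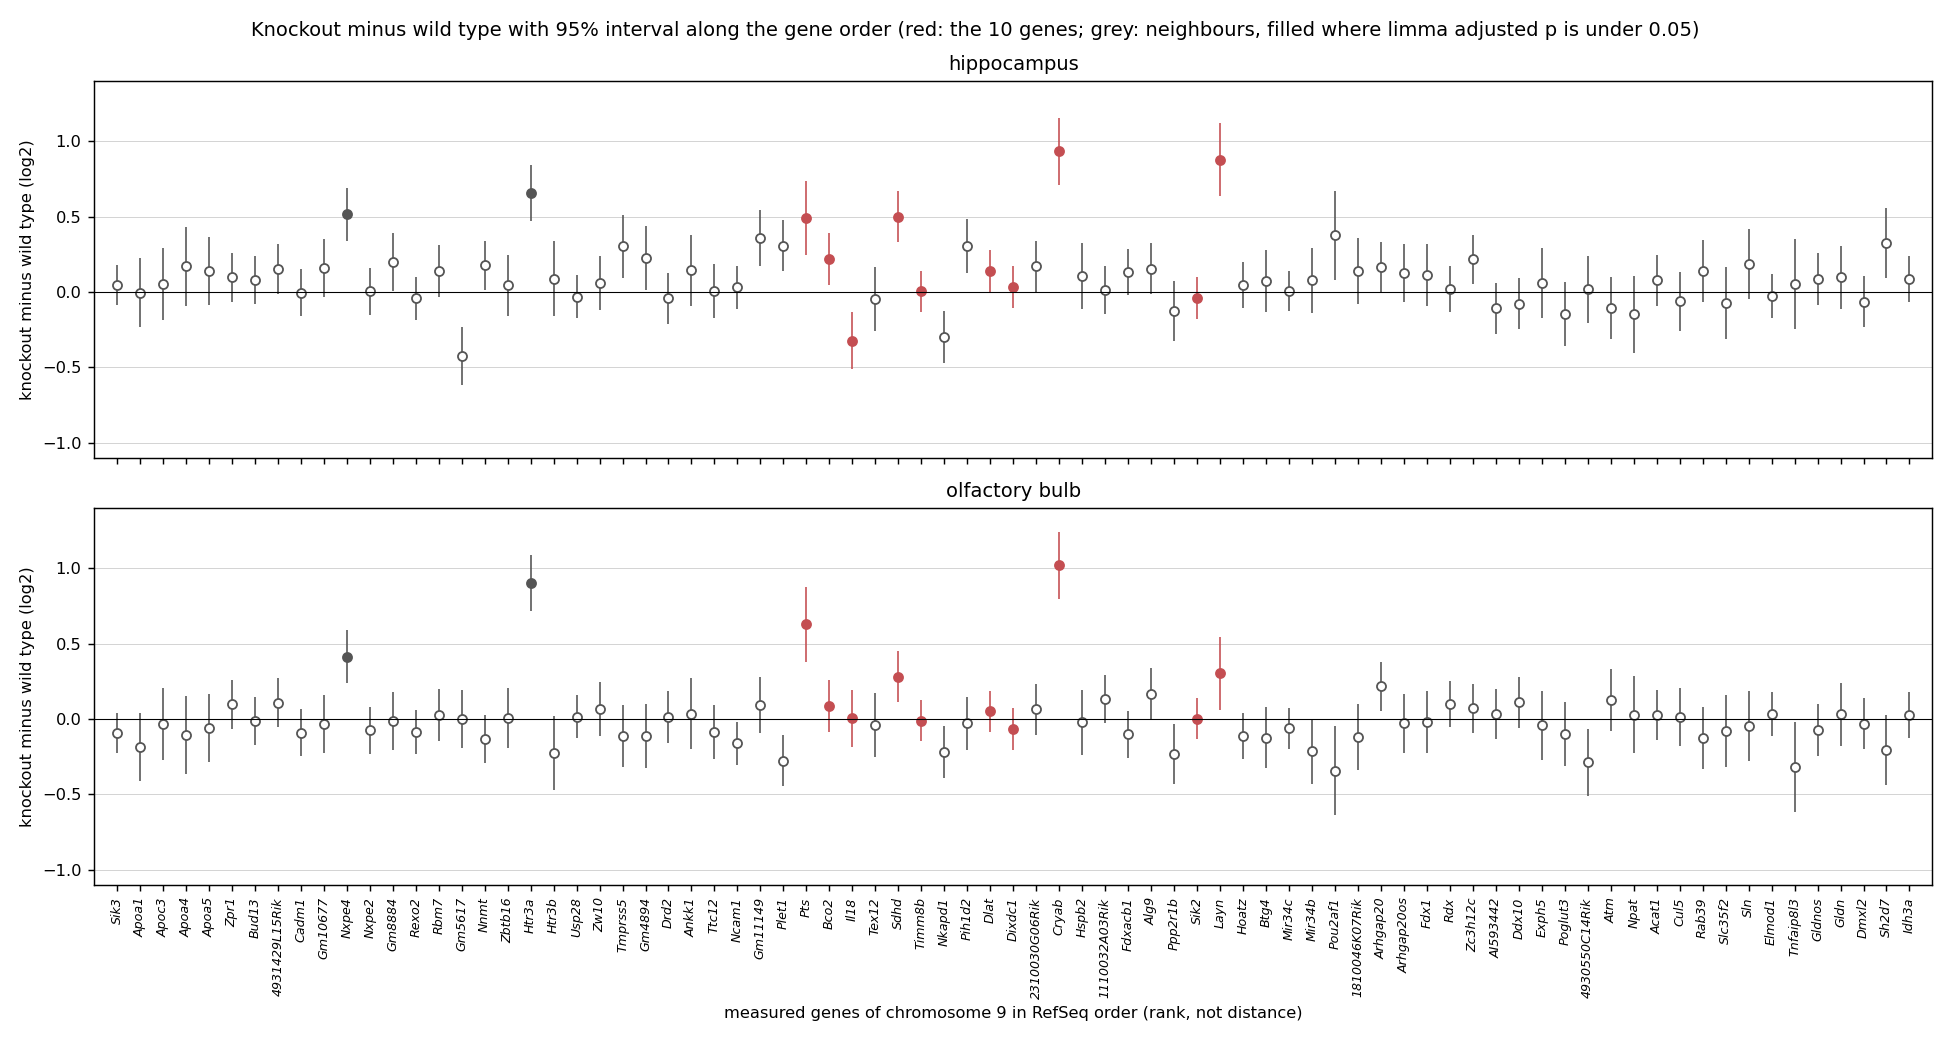
Difference between knockout and wild type on the log2 scale (vertical axis) with its 95% interval, for the 79 measured genes of the region in gene order (horizontal axis, ranks and not distances), hippocampus above and bulb below. Red points are the 10 members, and grey points are the neighbours, which are filled where the limma adjusted p is under 0.05. Members with high values and with values near 0 are interleaved along the run, and Htr3a and Nxpe4 are the filled neighbours in both tissues.

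The comparison of the tissues was not used to pick the genes, and it was tested in each genotype. In wild-type mice 5 of 10 members differed between hippocampus and bulb, where 40.9% of all genes did, and in knockout mice 6 did, where 39.1% did. Sik2 was the member lower in hippocampus, where it fell by 0.52 in wild type (SE 0.0645, limma adjusted p = 9.58e-06) and by 0.56 in knockout (SE 0.0645, limma adjusted p = 4.42e-06), in 3 of 3 animals of each genotype. Pts was higher in hippocampus by 0.76 in wild type (SE 0.115, limma adjusted p = 7.55e-05) and by 0.62 in knockout (SE 0.115, limma adjusted p = 0.000467). Sdhd rose by 0.25 in wild-type (limma adjusted p = 0.0193) and by 0.47 in knockout hippocampus (limma adjusted p = 0.000206). Cryab rose by 0.41 (limma adjusted p = 0.00475) and by 0.33 (limma adjusted p = 0.0197). Il18 rose by 0.28 in wild type (limma adjusted p = 0.0200) and differed by -0.04 in knockout. Layn differed by -0.20 in wild type (limma adjusted p = 0.179) and rose by 0.38 in knockout (limma adjusted p = 0.0143). Dlat rose by 0.20 in knockout (limma adjusted p = 0.0206). Timm8b, Dixdc1 and Bco2 passed in neither genotype.

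Sik2 passed in both genotypes in all 22 alternatives, and Pts in all 21 that kept it. With the animal as a replicate block, paired by the animal code, 4 members passed in each genotype. Of all 19938 genes, 7478 passed there in wild type and 7224 in knockout. Sdhd in wild type and Cryab and Dlat in knockout no longer did. Paired by the number in the array titles, no member's call changed. Single arrays also decided some calls. Sdhd in wild type was lost without the bulb (0.20) or hippocampal (0.20) array of N135, and Il18 without the bulb (0.20) or hippocampal (0.26) array of N138. In knockout, Cryab was lost without the bulb array of N386 (0.32) or the hippocampal array of N390 (0.31), and Layn without the bulb array of N390 (0.33) or the hippocampal array of N386 (0.33). Dlat was lost without the bulb array of N384 (0.19) or N390 (0.19) or the hippocampal array of N386 (0.18) or N390 (0.19). Layn in wild type passed only without the hippocampal array of I547, at -0.32, and Bco2 in knockout only with array weights, at 0.19. Centring every array on its median raised the tissue difference of all genes by 0.11 in wild type and 0.07 in knockout. It moved the share of calls that are higher in hippocampus from 42.7% to 63.0% in wild type and from 49.2% to 62.8% in knockout. On that scale Timm8b passed in both genotypes (0.22 and 0.20) and Dlat in wild type (0.23).

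**Figure D3:**
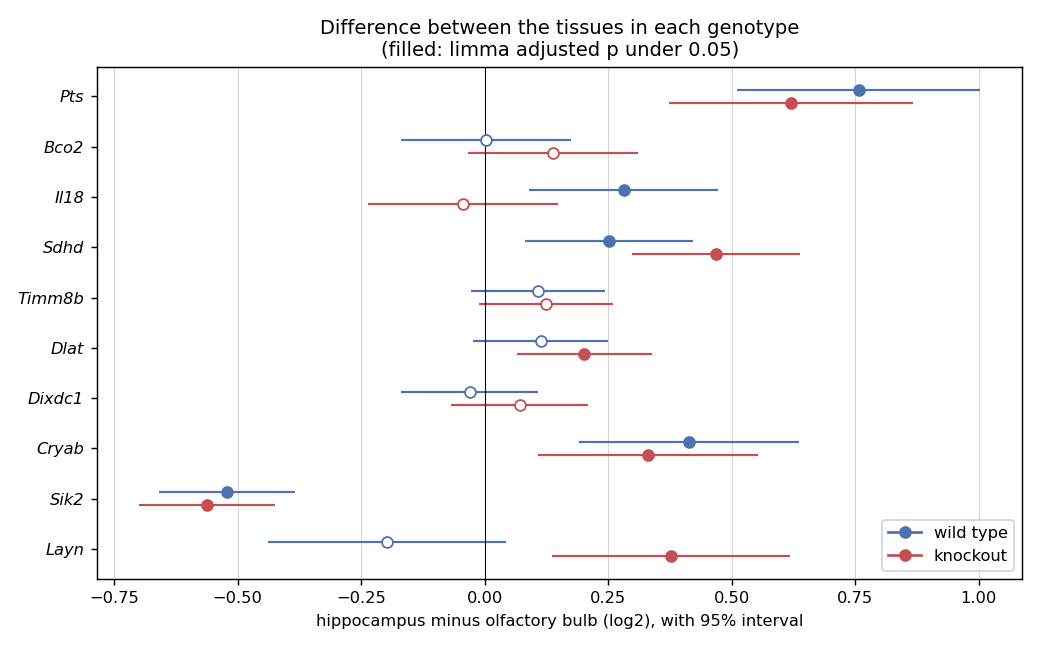
Difference between hippocampus and olfactory bulb on the log2 scale (horizontal axis) with its 95% interval for each of the 10 genes, in wild-type (blue) and knockout (red) mice. Filled points have a limma adjusted p under 0.05; Sik2 lies at -0.52 and -0.56, and Layn at -0.20 in wild type and 0.38 in knockout.

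Whether the genotype difference itself differed between the tissues was tested as an interaction, which 3 of 19938 genes passed (0.015%) and 0 members did in limma. At an unadjusted limma p under 0.05 there were 2 members, beside 2124 of the 19938 genes. Layn came nearest, with a hippocampal difference larger than the bulb one by 0.58 (95% interval 0.24 to 0.92, limma adjusted p = 0.368). Its interaction lay between 0.43 and 0.70 over the alternatives and passed in none. For Il18 the interaction was -0.33 (95% interval -0.60 to -0.05, limma adjusted p = 0.412). For Cryab it was -0.08 (95% interval -0.40 to 0.23, limma adjusted p = 0.851), for Pts -0.14 (95% interval -0.49 to 0.21) and for Sdhd 0.22 (95% interval -0.02 to 0.46). The members had been chosen with the calls in each tissue known.

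Genes that work with the members were taken from 11 lists by role. None of the 83 listed genes that are no members passed in either tissue in limma. Of these, 5 in hippocampus and 9 in bulb had an unadjusted limma p under 0.05, beside 1776 and 2245 of all 19938 genes. The median difference of the 83 genes was 0.04 in hippocampus and -0.01 in bulb. Beside Sdhd, the 7 other genes of succinate dehydrogenase and its assembly lay between -0.06 and 0.01 in hippocampus and between -0.08 and 0.12 in bulb, with the catalytic subunit gene Sdha at -0.06 and -0.08. Beside Pts, the 6 other genes of tetrahydrobiopterin synthesis and recycling lay between -0.15 and 0.16 in hippocampus and between -0.20 and 0.14 in bulb, among them Gch1, the entry enzyme, at -0.15 and 0.09. Beside Layn, 9 hyaluronan receptors and layilin partners lay between -0.13 and 0.09 in hippocampus and between -0.18 and 0.10 in bulb, with the hyaluronan receptor gene Cd44 at -0.13 and -0.18.

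Beside Cryab, the 9 other small heat shock proteins had a median of 0.09 in hippocampus, 8 of them above 0, and of -0.04 in bulb, 1 of them above 0. Of all 19938 genes, 12569 lay above 0 in hippocampus and 8869 in bulb. Hspb1, a close relative of Cryab, differed by 0.03 and -0.28. Of 7 other heat shock response genes, 7 lay above 0 in hippocampus, with a median of 0.08, and 6 in bulb, with a median of 0.14. Among these 7, the inducible chaperone gene Hspa1a had the largest differences, at 0.49 in hippocampus (SE 0.198, limma adjusted p = 0.525) and 0.36 in bulb (SE 0.198, limma adjusted p = 0.525). Beside Sik2, the kinase genes Sik1 and Sik3 differed by 0.02 and 0.05 in hippocampus. Il18bp, which binds the cytokine Il18, differed there by 0.10. The subunit gene Pdha1 of pyruvate dehydrogenase differed by 0.09 and 0.03, and the import chaperone gene Timm13 by 0.00 and 0.12.

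Marker genes of oligodendrocytes, which express Cryab, were read beside it, and those of other cells further on. The 8 measured oligodendrocyte markers had a median difference of 0.27 in hippocampus, 8 of 8 above 0, and of -0.08 in bulb, 2 of 8 above 0, and none passed in either tissue. Over all 19938 genes the medians were 0.03 and -0.02, with 12569 above 0 in hippocampus and 8869 in bulb. The mean level of the markers ran from 9.004 to 9.18 in wild-type and from 9.09 to 9.48 in knockout hippocampus. In bulb it ran from 8.88 to 9.002 in wild type and from 8.81 to 8.92 in knockout. Relative to the wild-type mean, hippocampal arrays N384, N386 and N390 stood at -0.01, 0.28 and 0.38 for the markers and at 0.90, 0.94 and 0.97 for Cryab. In bulb the markers stood at -0.06, -0.02 and -0.13 and Cryab at 1.02, 0.99 and 1.04. In hippocampus the 3 knockout arrays had the same order for the markers and for Cryab, and in bulb the reverse order. The part of the markers in the Cryab difference was not tested.

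**Figure D4:**
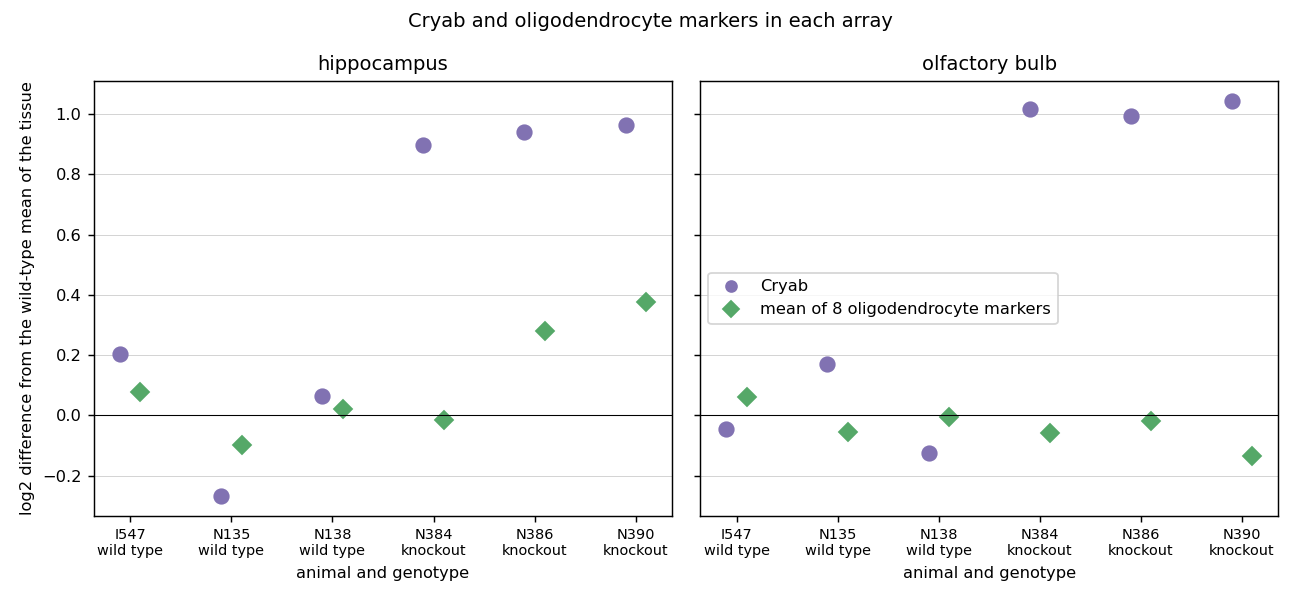
Cryab (circles) and the mean of 8 oligodendrocyte markers (diamonds) in each array, as the log2 difference from the wild-type mean of the same tissue (vertical axis), by animal and genotype (horizontal axis). Cryab stands between 0.90 and 1.04 in all 6 knockout arrays, while the markers range from -0.13 to 0.38 there.

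The 5 markers of ependyma and choroid plexus moved much like the oligodendrocyte ones, and none passed in either tissue. Their median difference was 0.23 in hippocampus, 4 of 5 above 0, and -0.05 in bulb, 1 of 5 above 0, where 12569 and 8869 of all 19938 genes lay above 0. The mean of this list stood at 0.19, 0.28 and 0.14 in knockout hippocampus, below wild-type I547 at 0.37. The lists below moved less or in another way. The 7 astrocyte markers had a median of -0.0011 in hippocampus, 3 of 7 above 0, and of -0.12 in bulb, 1 of 7 above 0. The 5 markers of meninges and fibroblasts spread widely in wild-type hippocampus, at 0.30 for I547 and -0.30 for N135, the arrays in which Cryab and Layn were highest and lowest among the wild-type hippocampi. I547 was also highest and N135 lowest there for the oligodendrocyte (0.08 and -0.10), astrocyte, microglia, endothelium, ependyma and neuron lists. That order did not hold for the hippocampus, bulb, muscle and blood lists. The part of any list in the spread of Cryab and Layn was not tested. In knockout arrays the meninges and fibroblast list lay from -0.25 to -0.19 in hippocampus and from -0.28 to -0.16 in bulb, below the wild-type mean. Microglial markers, read for Il18, averaged 7.78 to 7.86 in wild-type and 7.81 to 7.84 in knockout hippocampus. Markers of skeletal and heart muscle, tissues rich in Cryab, averaged 6.54 to 6.80 over all arrays, below every array's median.

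Within the groups, the members were weakly related to each other. After the group means were removed, the 45 pairs of members had a median correlation of 0.19 over 12 arrays, with 29 pairs above 0, as a description. Cryab and Layn had r = 0.80, Layn and Sik2 r = 0.81, and Layn and Dixdc1 r = -0.67. The genes most like Cryab after removal of the tissue means were A330023F24Rik (r = 0.966), the kinase gene Riok3 (r = 0.964) and the cohesin acetyltransferase gene Esco1 (r = 0.963). For Layn they were the protease inhibitor gene Serpina3n (r = 0.955), the potassium channel gene Kcnh5 (r = 0.932) and Patl1 (r = 0.920). None of these 6 genes lies on chromosome 9. This measure includes the genotype difference. With group means removed instead, Prkx (r = 0.943), Lin7a (r = 0.932) and Ly86 (r = 0.930) came first for Cryab, and Zfp521 (r = 0.953), Fmod (r = 0.946) and the innate receptor gene Tlr3 (r = 0.945) for Layn. All these genes were picked as the highest r among all genes, over only 12 arrays. How high such an r runs between unrelated genes was not tested.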

How the data were processed

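The authors deposited 1 log2 intensity per probe set and array, made with RMA and the oligo package per the submitters' processing notes, which give no versions. RMA corrects background, normalizes between arrays and compresses differences near background. Of 35556 probe sets, 21789 carry 1 gene symbol; the brightest on average stood for each of 19938 genes, with no filter on low signal. Each member has 1 probe set. Gene order came from RefSeq (GRCm38.p6); the sources used here name no build for the files.

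The 4 group means were fitted over 12 arrays with limma 3.58.1 in R 4.3.3 (lmFit, eBayes) and adjusted by Benjamini-Hochberg over all genes. The script was tested on simulated data. Members, lists and tests were chosen with earlier results of these data known. Named genes are the members, Rasgrf2, neighbours that passed, lay between members or were the 3 nearest on each side, list examples, and the 3 genes most like Cryab and Layn. Of 167 list entries, 158 were measured.

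Arrays with the same animal code in both tissues were taken as the same animal. In the wild type the title numbers cross a pair of animals against the code, and the labels alone do not settle which pairing is right. Residuals of the tissues of an animal correlated at -0.26 to 0.12 by the code and at -0.21 to 0.25 by the title number. Arrays have no read depth. Alternatives changed the arrays fitted, features, normalization, weights, block and replicates.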

Additional observations from a re-analysis of the deposited data

How the results depend on the processing

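Among the members, 570 of 571 genotype differences moved by less than the replicate SD, 414 of 434 tissue differences kept their side of the threshold, and 207 of 207 interactions did. Many alternatives cannot move a genotype difference, since they change only the genes tested, the variance estimate or the block. Leaving out an array of the other tissue cannot move it either. A large part of the 570 was therefore fixed in advance, and that count says little on robustness. No difference past the threshold changed sign. Of the 40 member differences that were not past it, 12 changed sign in at least 1 alternative, all 12 at most 0.08 in size as reported; they include the Cryab interaction (-0.22 to 0.02). Members past the threshold were counted over 12 fits without 1 array each. In hippocampus 2 to 3 passed, beside 30 to 56 of all 19938 genes, and in bulb 1 to 2, beside 35 to 105. Between tissues 4 to 6 passed in either genotype, beside 6813 to 8480 of all genes in wild type and 6665 to 7903 in knockout. For the interaction the counts were 0 to 0, beside 0 to 4 of all genes. Without 1 animal each, the average over tissues gave 4 to 4, beside 69 to 134 of all genes. For neighbours the fits without 1 array gave 1 to 2 in each tissue.

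Fitted on the arrays of 1 tissue alone, 1 neighbour passed in hippocampus and 1 in bulb. With every probe set tested, 1 member and 1 neighbour passed in bulb, beside 104 of 35556 probe sets. With genes under the median level left out, which removes Htr3a and Nxpe4, 1 neighbour passed in hippocampus and 0 in bulb. It was Gm5617, which was lower in knockout hippocampus, at -0.42 in the fit over all genes. In this setting 1 member passed in bulb and 2 in the average over tissues, beside 87 and 125 of 9969 genes. With array weights, 7 neighbours passed in hippocampus. With the animal, by its code, as a replicate block, 3 members passed in hippocampus, 2 in bulb, 4 between tissues in each genotype and 0 in the interaction. Over all 19938 genes it gave 51 in hippocampus, 80 in bulb and 0 in the interaction. Between tissues it gave 7478 in wild type and 7224 in knockout. This block changed no member's call besides the 3 named with the tissue differences. Blocking by the number in the array titles changed no member's call. The cause of these moves was not tested, apart from the fewer genes or arrays. Over all genes, 51 passed in hippocampus, against 28 on its own arrays, 125 with every probe set and 336 with array weights. In bulb 82 passed, against 36 on its own arrays and 136 with trend and robust settings.

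Bco2 lies below every array's median; whether RMA compressed its differences was not tested. The 3 arrays per group set the width of every interval.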

Other observations

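Over chromosome 9 as a whole, 8 of 1165 measured genes passed in hippocampus (0.687%) and 7 in bulb (0.601%), beside 0.256% and 0.411% of all genes. These counts hold members picked for such differences. Without the 10 members, 5 of 1155 passed in each tissue (0.433%). The 12 genes that passed in either tissue include 4 members, Nxpe4 and Htr3a. The other 6 lie outside the region and are named here after their values were seen. Chrna3, a nicotinic receptor subunit gene, rose by 0.97 in bulb (limma adjusted p = 0.000749) and differed by 0.26 in hippocampus (limma adjusted p = 0.551). Rpp25 rose by 0.44 in hippocampus (limma adjusted p = 0.0275), and Srpr, the signal recognition particle receptor gene, rose by 0.42 in bulb (limma adjusted p = 0.0237). Neo1, a netrin receptor gene, fell by 0.42 in hippocampus (limma adjusted p = 0.00442), and so did Hacd3, by 0.39 (limma adjusted p = 0.0297). Gnat1, the rod transducin gene, fell by 0.39 in bulb (limma adjusted p = 0.0463).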
